A study of Mus musculus with 2 samples.

Results

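Oligodendrocyte lineage cells made up 251 of the 5073 cells kept from 2 mouse brain single-cell RNA-seq libraries. A cell was counted in the lineage when 3 or more of 10 genes had at least 1 UMI, a unique molecular identifier that stands for 1 counted RNA molecule. The 10 genes were Pdgfra, Olig1, Sox10, Cspg4, Matn4, Lhfpl3, C1ql1, Gpr17, Enpp6 and Bcas1. A cell was kept when it had 500 or more genes and at most 10% of its UMIs from mitochondrial genes. The embryonic day 18 (E18) library held 37 lineage cells among 2631 kept cells, or 1.41% (95% Clopper-Pearson interval 0.992 to 1.93). The postnatal day 2 (P2) library held 214 among 2442, or 8.76% (7.67 to 9.96). The cells were thus chosen by the detected counts of these 10 genes, whose levels are given below as a description only.

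Oligodendrocytes wrap axons in myelin. They descend from oligodendrocyte precursor cells, dividing cells that carry the PDGF receptor encoded by Pdgfra and the proteoglycan NG2 encoded by Cspg4, and whose identity depends on the transcription factors Olig1, Olig2 and Sox10. Precursors that commit to differentiation pass through a short stage marked by the receptor Gpr17, the growth-cone protein Bcas1 and the phosphodiesterase Enpp6, and then make myelin proteins such as Mbp. In the mouse forebrain, precursors are produced in successive waves from ventral (subpallial) and then dorsal (pallial) progenitors, and the dorsal wave descends from cells that expressed Emx1.

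At E18, CD1 mice gave the cortex together with the dorsal ventricular-subventricular zone (V-SVZ), the germinal layer along the lateral ventricle. The P2 library came from Emx1Cre;R26Eyfpfl/fl mice, in which Cre under Emx1 control switches on EYFP in descendants of Emx1-expressing cells, and it held the dorsal and lateral V-SVZ without the cortex. Both suspensions were made with papain and sorted for intact nucleated cells (propidium iodide negative, DRAQ5 positive). Each age had 1 library, so age, dissection, mouse line and library cannot be told apart, no test was possible, and every interval below covers counting error only. How many animals went into each library is unknown here.

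The libraries held 19986915 UMIs at E18 and 42572208 at P2, and shared 0 cell barcodes. The median depth of lineage cells was 7002 UMIs in the E18 and 21009 in the P2 library, against 6627.5 and 12390.5 in the other kept cells. A rule that counts detected genes finds more cells at greater depth. With every cell thinned to 3000 UMIs, leaving out shallower cells, the lineage share was 1.19% (30 of 2518 cells, 0.805 to 1.70) at E18 and 5.81% (135 of 2322 cells, 4.90 to 6.84) at P2. The P2 share thus remained above the E18 share at equal depth, and the intervals did not overlap. Doublet scores in the highest 5% of their library were held by 1 of the 37 E18 lineage cells (2.70%) and by 39 of the 214 at P2 (18.2%), against 4.80% of the other P2 cells. Without these cells the P2 lineage share was 7.62% (6.57 to 8.78). Whether doublets add to the P2 group was not tested further.

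The upstream sequences of 3 genes are shown, chosen for the precursor and myelin genes that the P2 results describe. Pdgfra stands for the precursor state, and Cnp and Cldn11 are myelin genes that were higher in the committed cells described below, mainly through 5 of them. The genes lie at chr5:75152292-75198215, chr11:100574904-100591729 and chr3:31149920-31164324 in the GENCODE annotation. Each window lies outside and upstream of them, in RefSeq sequence of GRCm38.p6 (the mm10 build), on the plus strand, at chr5:75152001-75152250 for Pdgfra, chr11:100574689-100574903 for Cnp and chr3:31149670-31149919 for Cldn11. Capitals mark the letters ACAAAG, a core that SOX factors such as Sox10 can bind.
Pdgfra: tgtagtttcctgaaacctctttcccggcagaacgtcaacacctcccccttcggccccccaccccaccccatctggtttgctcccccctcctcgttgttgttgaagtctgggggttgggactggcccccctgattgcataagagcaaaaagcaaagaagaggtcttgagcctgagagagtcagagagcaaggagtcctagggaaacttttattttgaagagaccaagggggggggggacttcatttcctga
Cnp: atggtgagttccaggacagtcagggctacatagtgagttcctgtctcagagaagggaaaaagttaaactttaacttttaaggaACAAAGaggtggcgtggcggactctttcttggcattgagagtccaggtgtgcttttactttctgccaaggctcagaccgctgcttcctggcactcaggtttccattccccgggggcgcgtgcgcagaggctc
Cldn11: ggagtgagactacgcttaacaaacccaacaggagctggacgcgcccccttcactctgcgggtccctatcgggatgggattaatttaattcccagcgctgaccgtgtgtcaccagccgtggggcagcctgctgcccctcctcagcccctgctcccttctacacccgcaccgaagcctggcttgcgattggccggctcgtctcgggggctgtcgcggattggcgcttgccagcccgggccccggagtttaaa
The Cnp window is cut at the first annotated base of the gene. ACAAAG was searched on both strands of the 250 bases before each start, together with the E-box CAGCTG, a word that cannot overlap it. At least 1 window with ACAAAG was found for 7 of the 17 myelin-list genes present in the RefSeq table (41.2%), for 3 of 26 committed-precursor genes (11.5%), for 6 of 16 precursor surface genes (37.5%) and for 18.6% of all 27025 genes. CAGCTG was found for 2 of the 17 myelin-list genes (11.8%) and for 14.7% of all genes. Of the 3 windows shown, the one of Cnp holds ACAAAG. The windows of the myelin-list genes Gjc3 and Ugt8a, examined but not shown, hold neither word. These are counts of letters in short windows, and no binding was measured.

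Pdgfra, the receptor for PDGF-AA, was 1 of the rule genes. At E18 it had a UMI in 36 of the 37 cells, at 541 CPM (the group's UMIs scaled to the usual common total; 95% exact Poisson interval 454 to 639), against 0.677 CPM in other E18 cells. At P2 it had a UMI in 180 of 214 cells, at 309 CPM (295 to 323) against 4.78 CPM in other cells. Lineage cells held 91.3% of all E18 Pdgfra UMIs among kept cells and 91.6% at P2. Olig1 was seen in all 37 E18 cells at 3202 CPM and in 210 of 214 P2 cells at 1364 CPM, against 38.0 and 70.2 CPM in other cells. Olig2, which the rule did not use, was at 904 CPM (34 of 37 cells) against 26.8 CPM at E18, and at 407 CPM (199 of 214 cells) against 33.9 CPM at P2. In both libraries Olig1 and Olig2 were therefore also present outside the lineage cells, whereas Pdgfra was nearly restricted to them by the rule.

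Sox10, the factor that drives myelin gene transcription, was at 205 CPM in E18 lineage cells with 1 UMI in all 2594 other cells, and at 129 CPM in P2 lineage cells against 0.594 CPM. Gpr17 was seen in 16 of 37 E18 cells and in none of the other E18 cells, and in 100 of 214 P2 cells at 102 CPM against 0.339 CPM. Bcas1 was seen in 15 E18 and 162 P2 cells, and Mbp in 2 E18 and 70 P2 cells. These counts of cells were not brought to equal depth. Enpp6 was the rarest of the rule genes, with 0 of 37 E18 cells and 7 of 214 P2 cells. Detection overlapped broadly: 88 of the 100 P2 cells with Gpr17 also had Pdgfra, as did 15 of the 16 at E18. The exception was Enpp6, since 7 of its 7 P2 cells had Gpr17 and 1 had Pdgfra.

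The number of rule genes per cell differed between the libraries. At E18, 14 cells had 3 to 5 rule genes and 23 had 6 or more. At P2 the numbers were spread over separate ranges, with 72 cells at 3 to 5, of which 44 were just inside the rule at 3, then 12 cells at 5 genes, and 142 cells at 6 or more. Just outside the rule, 20 E18 and 136 P2 cells had 2 rule genes.

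**Figure D1:**
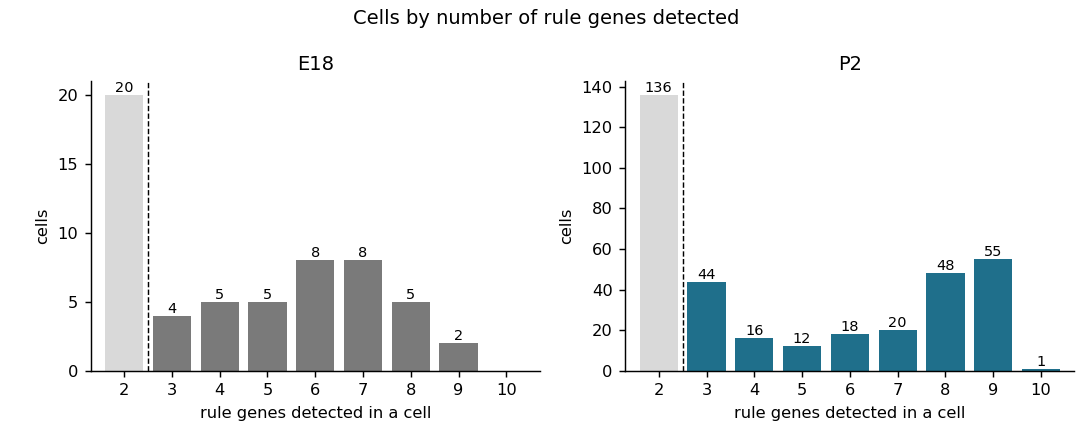
Number of kept cells (y axis) by number of detected rule genes (x axis) in each library, with the rule's threshold as a dashed line and cells just outside it in grey. P2 cells show a low group at 3 to 5 genes and a high group peaking at 8 and 9, while the 37 E18 cells spread from 3 to 9.

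The P2 cells with 3 to 5 rule genes carried low levels of the defining genes. Pdgfra was at 22.6 CPM in P2 cells with 2 rule genes, 59.2 CPM with 3 to 5 and 453 CPM with 6 or more. Sox10 was at 2.82, 23.9 and 189 CPM in the same order, and Gpr17 at 0.847, 1.84 and 160 CPM. Genes the rule did not use were also graded: Sox6, a factor that holds precursors undifferentiated, was at 46.9, 67.9 and 194 CPM. A pair of genes of other progenitors was lowest in cells with 6 or more. Egfr, the EGF receptor of transit-amplifying progenitors, was at 86.7, 136 and 51.1 CPM, and Dlx1, a factor of subpallial progenitors and interneurons, at 391, 354 and 175 CPM, against 400 CPM in other P2 cells. The median depth was 28459.5 UMIs in cells with 3 to 5 rule genes and 18416 in cells with 6 or more. Olig1 alone was high throughout, at 324, 918 and 1621 CPM. Pdgfra, Sox10 and Gpr17 are rule genes, so their far lower level in the 72 cells with 3 to 5 is a description only. Sox6, which the rule did not use, was also lower there than in the 142 cells with 6 or more. The counts that lead each comparison are therefore given with and without those 72.

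Proteins of the precursor surface and matrix set lineage cells apart from other cells in both libraries. With features of 10 or more UMIs, 17.0% of all 10934 features were at least 2-fold higher in E18 lineage cells and 15.7% at least 2-fold lower, around a median log2 ratio of 0.02. Of 23 measured genes of the surface and matrix list, 21 were at least 2-fold higher and 0 lower at E18, with a median log2 ratio of 2.71. At P2, where 7.95% of 15680 features were higher and 9.29% lower around a median of -0.01, 20 of 23 were higher and 0 lower, with a median of 2.46. Among P2 cells with 6 or more rule genes the counts were 21 and 0, with a median of 2.94. Serpine2, a secreted protease inhibitor, was at 640 CPM against 18.8 CPM at E18 (log2 ratio 5.09, 4.82 to 5.36) and at 408 against 51.3 CPM at P2 (2.99, 2.90 to 3.08). Bcan, the proteoglycan brevican, was at 525 against 17.1 CPM at E18 and at 399 against 61.5 CPM at P2. Ednrb, the endothelin B receptor, was at 320 against 8.49 CPM at E18 and at 401 against 55.9 CPM at P2. Ptprz1, a receptor phosphatase that precursors share with other glia, differed less, with log2 ratios of 1.94 and 1.58.

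Transcription factors divided between precursor factors and factors of other cells. Of 20 measured factors at E18, 10 were at least 2-fold higher and 6 lower (median 1.34), and at P2 12 of 24 were higher and 0 lower (median 0.98). Sox8, a close relative of Sox10, had log2 ratios of 5.00 at E18 and 2.61 at P2, and Sox6 of 3.39 and 2.22. Nkx2-2, a factor that promotes oligodendrocyte differentiation, had 167 UMIs in 85 P2 lineage cells and a log2 ratio of 4.07 (3.64 to 4.53). Zfp488, a repressor specific to the lineage, had 44 UMIs in P2 lineage cells and 2 in other cells. Id2, an inhibitor of basic helix-loop-helix factors, went the other way at E18 at 59.2 against 863 CPM. At P2 it was at 148 against 132 CPM.

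Growth factor and Notch genes were part of the same profile. In the list of growth factor receptors and targets, 12 of 17 genes were at least 2-fold higher and 3 lower at E18 (median 1.42), and 11 of 22 higher and 0 lower at P2 (median 1.04). Egfr was at 43.4 against 4.85 CPM at E18 and at 82.1 against 29.9 CPM at P2. In the list of Notch, BMP and Wnt genes, 9 of 18 were higher and 3 lower at E18 (median 1.09), and 7 of 25 higher and 1 lower at P2 (median 0.59). The Notch ligands led it: Dll3 had log2 ratios of 3.82 at E18 and 2.57 at P2, and Dll1 of 3.81 and 1.83. Hes5, a Notch target counted among the transcription factors, had 2.73 and 1.46. Rnf43, a brake on Wnt signalling, had 46 UMIs in 33 P2 lineage cells and 6 UMIs in other cells. Sterol and lipid synthesis genes, which supply myelin membrane, passed the fold in 0 of 24 cases upward at E18 and in 1 of 24 at P2, with medians of 0.20 and 0.62.

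Examples of the growth factor list, picked after their values were seen, were targets of this signalling. Ccnd1, the D-type cyclin of growth factor signalling, was at 142 against 19.1 CPM at E18 (log2 ratio 2.90, 2.36 to 3.39) and at 148 against 34.4 CPM at P2 (2.11, 1.98 to 2.24). Etv5, a transcription factor induced by receptor tyrosine kinases, had 1.94 and 1.83. Spry1, an inhibitor of the same signalling, was at 75.0 against 6.30 CPM at E18 (3.57, 2.79 to 4.28) and at 64.5 against 8.42 CPM at P2 (2.94, 2.71 to 3.16).

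Myelin and committed-stage genes were higher in P2 lineage cells than in other cells, in large part through 5 cells. Of 10 measured myelin-list genes 4 were at least 2-fold higher and 1 lower at E18 (median log2 ratio 0.93), and 14 and 2 of 19 at P2 (median 2.57). Without the 5 P2 cells with all 4 split genes, described below, these were 8 and 3 of 17 (median 0.63). Committed-precursor genes were higher in 5 and lower in 4 of 20 cases at E18 (median 0.43), and in 14 and 0 of 27 at P2 (median 1.04), or 11 and 0 (median 0.54) without those 5 cells. Fa2h, the enzyme that hydroxylates myelin lipids, had 58 UMIs in 25 P2 lineage cells and 2 UMIs in all other P2 cells. Gjc3, a connexin of oligodendrocytes, had 74 UMIs in 18 cells against 6 UMIs. Members of the myelin list were not all higher: Trf, the iron carrier transferrin, was at 4.54 against 12.3 CPM.

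Ion channel, transmitter and patterning genes divided by library. Of the glutamate, GABA and channel list 5 genes were higher and 13 lower of 23 at E18 (median -1.18), and 6 and 4 of 26 at P2 (median 0.30), or 10 and 2 (median 0.61) with 6 or more rule genes. Kcnj10, a potassium channel of glia, was at 31.9 against 11.5 CPM at P2 (log2 ratio 1.47, 1.21 to 1.72), and Nlgn3, a synaptic adhesion protein also made by precursors, at 87.2 against 34.6 CPM (1.33). Pallial patterning genes were lower in 6 of 9 cases and higher in 0 at E18 (median -1.36), where Lhx2, a factor of cortical progenitors, was at 75.0 against 193 CPM. At P2 they were higher in 1 and lower in 0 of 10 cases (median -0.08). Subpallial genes were higher in 4 and lower in 0 of 11 cases at E18 (median -0.01), and higher in 2 and lower in 7 of 15 at P2 (median -0.98), or 1 and 9 with 6 or more rule genes. Glycolysis genes were higher in 4 and lower in 1 of 15 cases at E18 (median 0.70), and in 2 and 0 at P2 (median 0.51).

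Other genes were also high in the lineage in both libraries. Lims2, a focal adhesion protein of the committed-precursor list, was at 67.1 against 0.417 CPM at E18 (log2 ratio 7.33, 6.04 to 8.75) and at 67.0 against 1.05 CPM at P2 (interval of the log2 ratio 5.51 to 6.53). Its gene (chr18:31922290-31958619) spans that of Gpr17 (chr18:31942997-31949636), a rule and split gene on the other strand. The part of this overlap in the Lims2 values here and below was not tested. Lnx1, a ubiquitin ligase, had ratios of 6.58 and 4.68. Plekhb1 had 6.58 and 2.63, and Tril, a membrane protein of Toll-like receptor signalling, had 6.37 and 3.03. At P2 the genes highest by the interval bound nearest 0 included Pllp, the myelin membrane protein plasmolipin, with 418 UMIs in 132 lineage cells against 27 UMIs in other cells (6.52, 5.96 to 7.14), and Prkcq, a protein kinase C, at 51.2 against 0.933 CPM. Pnlip, best known as pancreatic lipase, was seen in 5 of 37 E18 lineage cells with 13 UMIs and in 0 other E18 cells, which made it at least 328-fold higher against a floor of 3 UMIs over the other cells. It was present at P2 too, with 51 UMIs in 13 lineage cells and 2 UMIs elsewhere. Gsx1, a progenitor factor of the subpallial list, had 28 UMIs in 12 E18 lineage cells against 14 UMIs in all other E18 cells (7.24), and a P2 ratio of 2.63.

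Genes lower in the lineage included markers of neurons. At E18 the excitatory neuron markers were lower in 9 of 9 measured cases (median log2 ratio -3.16) and the general neuronal markers in 9 of 10 (median -2.90). Neurod6, a factor of cortical excitatory neurons, was at 27.6 against 1046 CPM. Stmn2, a growth cone protein, was at 79.0 against 2242 CPM. At P2 the inhibitory neuron markers were lower in 6 of 10 cases (median -1.17), with Dlx5 at 60.6 against 175 CPM and Gad2 at 144 against 316 CPM. Ratios were smaller at P2: Stmn2 was at 386 against 1127 CPM. All 10 ependymal markers (median -3.65) and all 10 microglial markers (median -2.23) were lower in P2 lineage cells, but the ependymal median was 0.46 with 2 or more rule genes.

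Some of the P2 signal of other cell types sat inside the lineage group. The summed level of 10 inhibitory neuron markers was 1162 CPM in P2 lineage cells (1404 with 3 to 5 rule genes, 1023 with 6 or more) against 2439 CPM in other cells, and 89 of 214 cells had 4 or more of them. The 12 astroglial and stem cell markers summed to 985 CPM (1315 and 794 in the same subsets) against 682 CPM, with 83 of 214 cells holding 4 or more. Microglial markers summed to 124 CPM against 608, and 1 lineage cell held all 10 of them. The 10 general neuronal markers summed to 2728 CPM against 5365 CPM, and 200 of 214 cells held 4 or more of them (93.5%), against 92.1% of other cells. At E18 inhibitory neuron markers were at 126 against 261 CPM, with 1 of 37 cells holding 4 or more, and general neuronal markers at 1417 against 8158 CPM, with 22 of 37. Astroglial and stem cell markers were at 434 against 362 CPM there. The microglial list had 7 of 10 markers at 0 there, the endothelial 9 of 10, and the fibroblast and ependymal lists 10 of 10. The part of these markers in the P2 results was not tested.

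Cell cycle genes showed another difference between the libraries. A cell was called cycling when 5 or more of 40 S, G2 and M phase genes had a UMI after thinning to 3000 UMIs. At E18, 9 of 34 lineage cells (26.5%, 12.9 to 44.4) were cycling against 130 of 2484 other cells (5.23%). At P2, 69 of 214 (32.2%, 26.0 to 39.0) were cycling against 563 of 2108 (26.7%, 24.8 to 28.7). Lineage cells were thus called cycling more often than other cells at E18, with intervals apart, and the P2 intervals overlapped. With 6 or more rule genes the P2 lineage share was 19.0% (12.9 to 26.4), below the 26.7% of other cells. In unthinned counts the shares were 32.4% and 87.4%, which follows the depth. Of 20 S phase genes, 17 were at least 2-fold higher in E18 lineage cells (median 1.62), and 0 at P2 (median -0.17). Of the G2 and M phase genes, 2 were higher and 1 lower of 15 at E18 (median 0.28), and 0 of 20 either way at P2 (median -0.04). With 6 or more rule genes at P2, 0 were higher and 6 lower (median -0.86).

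Within P2, the cells were divided by Gpr17, Enpp6, Bcas1 and Mbp. The 111 cells with 2 or more of these 4 are called committed cells below, and the 81 with Pdgfra and at most 1 of them Pdgfra-positive cells, while 22 belonged to neither. Both names label the sides of the split and not a stage shown for each cell. At E18 the same split gave 6, 30 and 1. The split depends on depth: with every cell thinned to 3000 UMIs, 28 of 135 lineage cells were committed at P2 and 2 of 30 at E18. Of the 111 committed cells, 99 also had a Pdgfra UMI, so most cells on the committed side of the split had not lost the receptor transcript. Median depths were alike, at 19294 UMIs in committed and 20904 in Pdgfra-positive cells. The median number of rule genes was 9 in committed and 5 in Pdgfra-positive cells. The most advanced cells were the 5 with all 4 genes, and 31 had 3, 75 had 2, 76 had 1 and 27 had 0.

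The levels of precursor surface genes along this order are a description only, since 3 of the 4 split genes are also rule genes and cells with few split genes thus have few rule genes. Pdgfra was at 47.1, 291, 381 and 480 CPM in cells with 0, 1, 2 and 3 of the 4 genes, and at 0 UMIs in the 5 cells with all 4 (upper Poisson limit 15.2 CPM). Cspg4 was at 22.9, 52.8, 97.7, 141 and 8.26 CPM. Among surface genes that neither rule used, Cspg5, a neural proteoglycan, was at 379, 608, 876 and 1012 CPM and then at 37.2 CPM, and Ednrb at 221, 310, 499 and 625 CPM and then at 20.6 CPM. Ptprz1 lay between 1408 and 1656 CPM up to 3 genes and was at 363 CPM in the last 5 cells. Egfr was already low earlier, at 99.6, 130, 65.0, 21.3 and 8.26 CPM.

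Genes highest in the last 5 cells came from the surface list and the committed list. Tnr, the matrix protein tenascin-R of the surface list, was at 2.69, 34.3, 116, 204 and 739 CPM from 0 to 4 genes, and Vcan, the proteoglycan versican, at 95.5, 105, 150 and 191 CPM and then at 252 CPM. Lims2 was at 2.69, 13.8, 61.7, 137 and 496 CPM, and Itpr2, a calcium release channel, at 13.5, 46.1, 73.7, 135 and 756 CPM. Bmp4, a secreted signal of the newly committed stage, had 0 and 1 UMIs in the 27 and 76 cells with 0 and 1 genes, and was at 8.75, 53.2 and 326 CPM after that. Myrf, the factor that switches on myelin genes, had 0 UMIs up to 1 gene and was at 6.45, 17.7 and 194 CPM in cells with 2, 3 and 4.

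Myelin genes had their largest step between 3 and 4 split genes. Cnp, an enzyme of the myelin sheath, was at 63.2, 113, 140 and 223 CPM in cells with 0 to 3 genes and at 3205 CPM in the 5 with all 4. Cldn11 had 0 UMIs in cells with 0 genes, was at 1.54, 4.15 and 2.36 CPM with 1 to 3, and at 669 CPM (570 to 780.4) in the last 5. Sirt2, a deacetylase of the committed list, was at 82.1, 146, 186 and 382 CPM and then at 3828 CPM.

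**Figure D2:**
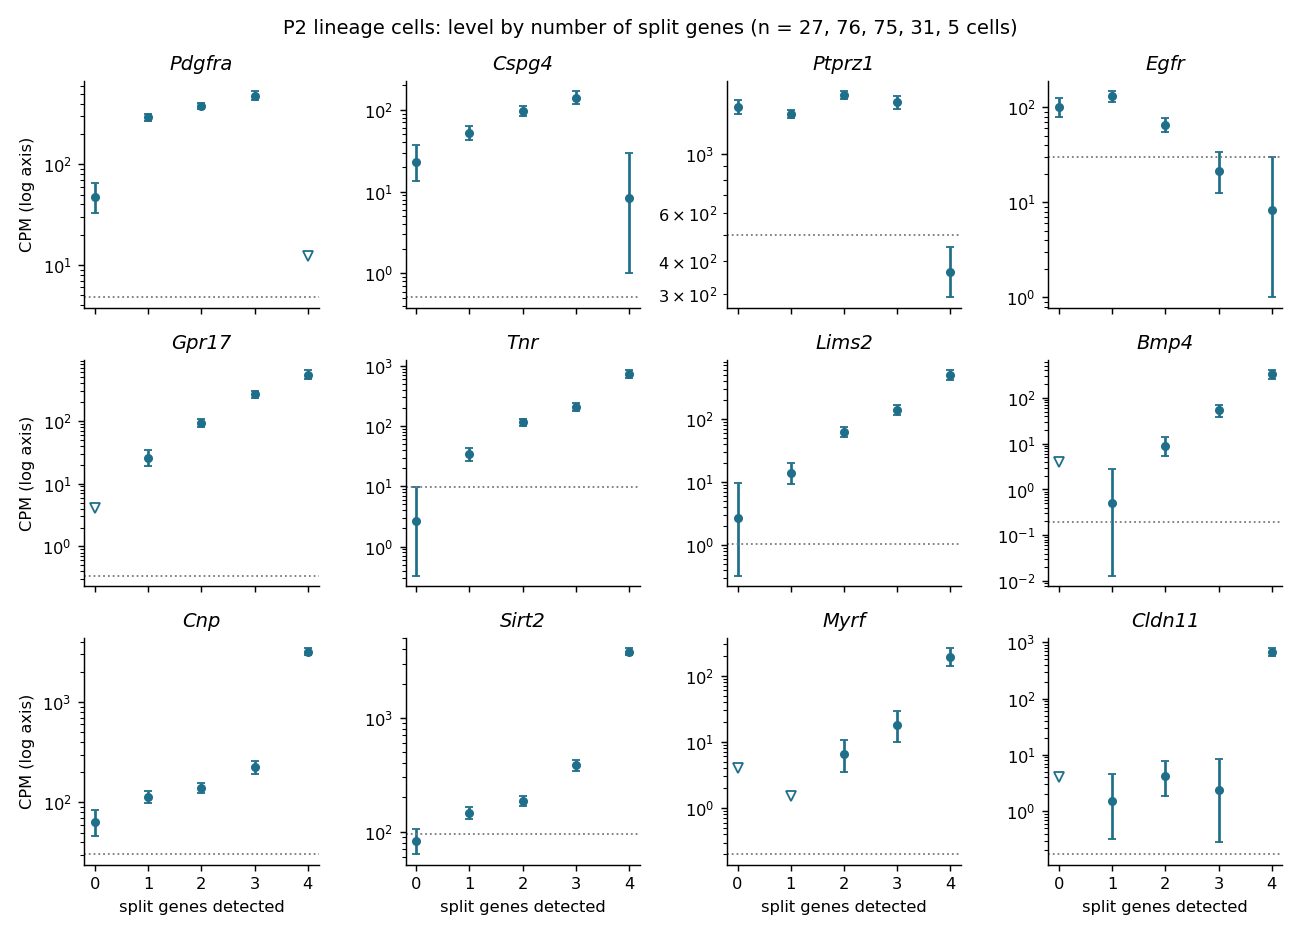
Level (CPM, log axis) of 12 genes in P2 lineage cells by number of detected split genes (0 to 4; 27, 76, 75, 31 and 5 cells), with 95% Poisson intervals; open triangles mark 0 UMIs, drawn at the level of 3 UMIs, and dotted lines other P2 cells. Pdgfra and Cspg4 are highest at 3 split genes, Tnr, Lims2 and Bmp4 increase over several steps, and Cnp, Sirt2 and Cldn11 are highest in the last group.

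The 5 cells with all 4 genes differed among themselves. Pdgfra had 0 UMIs in all 5, with depths of 47211, 70253, 12666, 88726 and 23283 UMIs. Mbp had 741, 385, 53, 18 and 8 UMIs in the same order of cells, Cnp 374, 205, 35, 128 and 34, and Cldn11, the tight junction protein of myelin, 128, 25, 7, 2 and 0. Gpr17 was still present, with 17, 12, 15, 45 and 43 UMIs. Scaled by depth, Gpr17 was at 360, 171, 1184, 507 and 1847 CPM. Mbp and Cnp together were at 23617, 8398, 6948, 1646 and 1804 CPM. The first and second cells, highest in these myelin genes, were thus lowest in Gpr17, while the third was high in both. Mog, a protein of the outer myelin layer, had 1, 3, 0, 0 and 0 UMIs. The 5 cells held 776 of the 1537 Cnp UMIs and 162 of the 176 Cldn11 UMIs of all 214 lineage cells. For Mbp, which the split used, the 4 cells with most UMIs held 91.9%.

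**Figure D3:**
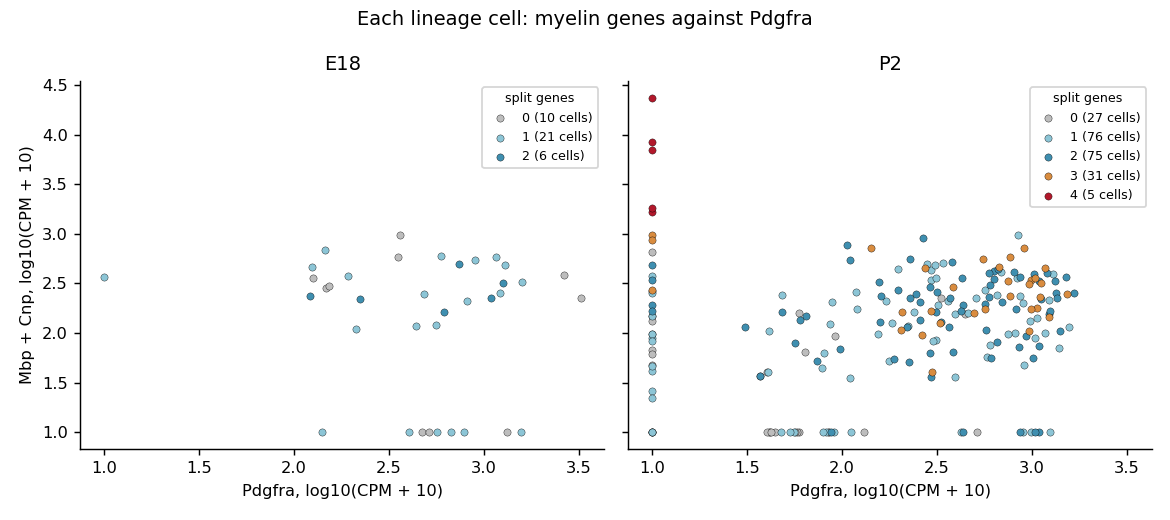
Each lineage cell of both libraries by its Pdgfra level (x axis) and its summed Mbp and Cnp level (y axis), both as log10 of CPM plus 10, coloured by number of split genes. The 5 P2 cells with all 4 split genes lie at 0 Pdgfra, with myelin levels of 1646 CPM or more, against at most 965 CPM in all other P2 lineage cells.

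Summed over groups, the committed cells were higher in committed-stage and myelin genes. Over all 12280 features, 8.25% were at least 2-fold higher in committed than in Pdgfra-positive cells and 2.46% lower, around a median log2 ratio of 0.10. Of 27 committed-precursor genes 17 were higher and 0 lower (median 1.55), and of 15 myelin genes 12 were higher and 1 lower (median 2.06). Without the 5 cells with all 4 genes the counts were 9 higher and 1 lower of 27 (median 0.78), and 6 and 1 of 14 (median 0.95). With 6 or more rule genes they were 12 and 1 of 27 (median 0.81), and 8 and 1 of 15 (median 1.22). Both lists were set with earlier results of these data known, so their direction is no independent evidence.

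Single genes showed which part of this rested on the 5 cells. Cnp had a log2 ratio of 1.87 with them and 0.62 without. Cldn11 had 5.69 with and 1.82 without. Lims2 had 3.03 (370 UMIs in 70 committed cells against 27 UMIs in 18) with and 2.57 without. Tnr had 2.51 with and 2.11 without. The calcium-binding proteins S100a13 and S100a6 had 2.19 and 2.20 with, and 1.98 and 1.69 without. Opcml, a cell adhesion protein, had 2.17 with and 1.95 without. Tnr, S100a13 and Opcml therefore differed in the wider committed group, and Cnp mainly through the 5 cells. Lims2 also differed there, but its gene spans that of the split gene Gpr17, so it may not be independent of the split. With 6 or more rule genes the Lims2 ratio was 1.98 and the Tnr ratio 1.43.

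Bmp4 had 143 UMIs in 16 committed cells and 1 UMI in the Pdgfra-positive cells (log2 ratio 6.41, 3.91 to 11.72). Myrf had 76 UMIs in 22 committed cells and 0 in the 81 Pdgfra-positive cells, which made it at least 15.1-fold higher against a floor of 3 UMIs over the group. Neu4, a sialidase, had 50 UMIs in 14 cells against 2 UMIs. Glutamate receptors were among the higher genes, with Gria4 at 33.1 against 10.8 CPM (1.61, 0.93 to 2.36) and Grik3 at 32.8 against 10.3 CPM (1.67). Of 25 genes in the glutamate, GABA and channel list 6 were higher and 0 lower (median 0.67), against 2 and 0 (median 0.22) with 6 or more rule genes.

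Pdgfra itself was at 379 CPM in committed and 311 CPM in Pdgfra-positive cells, and Cspg4 at 102 and 56.2 CPM. Olig2 was alike at 437 and 434 CPM (log2 ratio 0.01, -0.12 to 0.13). Of 23 surface and matrix genes 5 were higher and 0 lower (median 0.76), but with 6 or more rule genes 1 of 23 was higher (median -0.13). The higher level of precursor surface genes was therefore lost when cells with few rule genes were left out of both groups.

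Genes lower in committed cells included genes of progenitors. Egfr was at 49.4 against 129 CPM (log2 ratio -1.39, -1.68 to -1.10), and at -0.80 with 6 or more rule genes. Helt, a repressor of the Hairy family, was at 23.0 against 62.4 CPM (-1.44, and -1.10 with 6 or more). The replication genes Tyms (-1.18) and Mcm4 (-1.27) were also lower, but with 6 or more rule genes Tyms was at 0.31 and Mcm4 at -0.34. Of 20 S phase genes 7 were lower and 0 higher (median -0.76), which became 0 lower and 3 higher (median 0.23) with 6 or more rule genes. Ccl4, a chemokine gene of microglia, was lower at -4.98, and 1 Pdgfra-positive cell held 96.1% of its UMIs in that group.

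Cycling cells made up 42.0% (34 of 81, 31.1 to 53.5) of the Pdgfra-positive and 21.6% (24 of 111, 14.4 to 30.4) of the committed cells after thinning to 3000 UMIs. Along the number of split genes the shares were 51.9%, 40.8%, 24.0%, 16.1% and 20.0%. Among cells with 6 or more rule genes the shares were close, at 17.9% (7 of 39, 7.54 to 33.5) and 18.8% (19 of 101, 11.7 to 27.8). Cells with 3 to 5 rule genes were cycling in 58.3% (42 of 72, 46.1 to 69.8) of cases, close to the 56.9% of cells with 2 rule genes outside the rule. Fewer cycling cells in the committed group thus went with the number of rule genes in a cell.

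The EYFP record of Emx1 descent was frequent in the lineage. EYFP had a UMI in 142 of 214 P2 lineage cells (66.4%, 59.6 to 72.7) against 796 of 2228 other cells (35.7%) as deposited, and in 108 of 214 (50.5%, 43.6 to 57.4) against 531 of 2108 (25.2%, 23.3 to 27.1) after thinning to 3000 UMIs. Microglia-marker cells, which do not descend from Emx1 cells, gave 1 of 46 as deposited (2.17%, median depth 20117 UMIs against 21009 in lineage cells) and 0 of 38 thinned, which allows a share of up to 7.89%. The lineage share was above the share in those cells. Without the highest 5% of doublet scores the lineage share was 62.9% (55.2 to 70.0) as deposited. The part of free EYFP RNA or of doublets in these shares was not tested. Thinned shares were 56.9% with 3 to 5 rule genes and 47.2% with 6 or more, and 54.3% in Pdgfra-positive and 48.6% in committed cells, with overlapping intervals. By number of split genes they were 33.3%, 59.2%, 56.0% and 38.7% from 0 to 3, and 0 of the 5 most advanced cells. As deposited, 1 of those 5 had EYFP, with 20 UMIs, and that cell also held 69 Tubb3 and 29 Dlx1 UMIs. Such transcripts were not particular to it: the cell of 88726 UMIs, with 0 EYFP UMIs, held 123 Tubb3 and 29 Dlx1 UMIs.

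**Figure D4:**
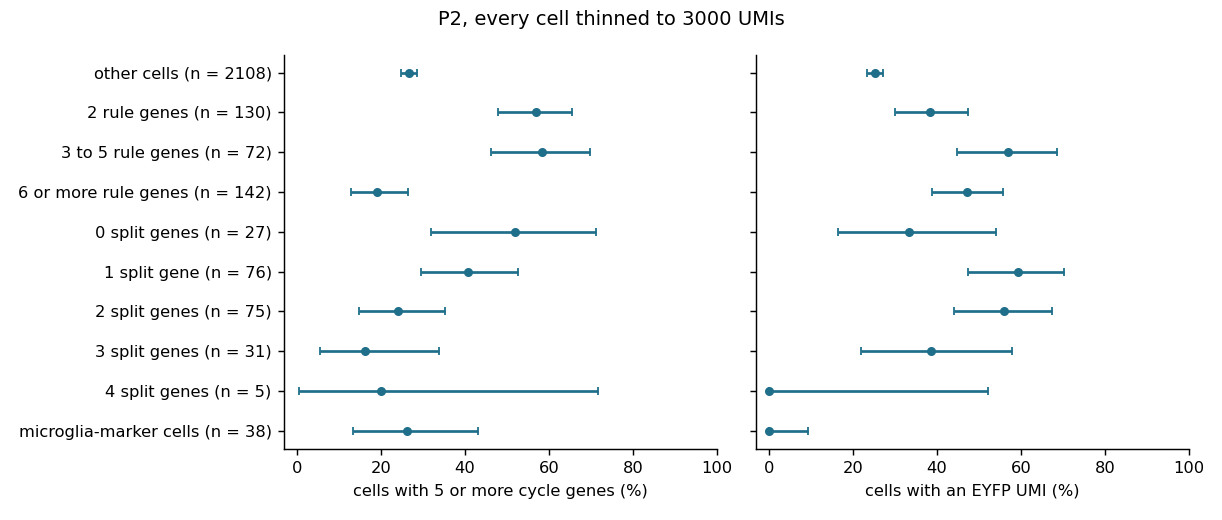
Percent of P2 cells called cycling and percent with EYFP after thinning to 3000 UMIs, by state, with 95% Clopper-Pearson intervals. Cycling is at 58.3% with 3 to 5 rule genes and 19.0% with 6 or more, and EYFP lies between 33.3% and 59.2% in all lineage states but the 5 cells with all 4 split genes.

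Lineage cells with an EYFP UMI were higher in pallial genes than those without. The 142 cells with EYFP had a median depth of 22875.5 UMIs and the 72 without 17761. EYFP detection depends on depth, so the 72 are cells with no detected EYFP UMI. Over all 12510 features 3.37% were at least 2-fold higher and 4.90% lower in the 142 cells with EYFP, around a median of -0.02. Of 10 pallial patterning genes 7 were higher and 0 lower (median 1.95), and 5 and 0 of 9 (median 1.61) with 6 or more rule genes. Pax6, a dorsal progenitor factor, was at 89.4 against 23.0 CPM (log2 ratio 1.96, 1.48 to 2.48, and 2.22 with 6 or more rule genes). Leaving out cells with 5 or more cycle genes in unthinned counts kept 18 cells with and 9 without EYFP. There the Pax6 ratio was -0.49 (-2.36 to 1.51). Dmrta2, a factor that patterns the cortex, had 136 UMIs in 66 cells against 2 UMIs (4.71, 2.83 to 7.77). Lhx2 was at 118 against 39.3 CPM. Emx1 itself had 30 UMIs in 17 cells against 0, which made it at least 3.85-fold higher against the floor. Of 14 subpallial genes 2 were higher and 2 lower (median 0.41). Six3, a subpallial factor of the striatal primordium, was 1 of the lower genes, at 21.4 against 70.1 CPM (-1.71, -2.12 to -1.30). Gsx2 did not separate the groups, at 41.0 and 39.3 CPM (0.06, -0.36 to 0.49).

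Excitatory neuron markers were also higher in cells with EYFP, in 6 of 9 cases (median 2.13), with Neurod6 at 78 UMIs in 15 cells against 0. In the 27 cells left by the cut on cycle genes only 1 of these markers was measured, at -2.08. Without the highest 5% of doublet scores 4 markers could be measured, of which 1 was higher (median 0.69), while the pallial list then had 5 higher and 0 lower of 8. In all cells with EYFP, lists of other neural classes also had medians above 0. Inhibitory neuron markers were higher in 2 and lower in 0 of 10 cases (median 0.66). Astroglial and stem cell markers were higher in 4 and lower in 0 of 12 (median 0.59). General neuronal markers were higher in 0 and lower in 0 of 10 (median 0.36). Microglial markers were lower in 10 of 10. Myelin and committed genes were lower in cells with EYFP, in 10 of 15 (median -1.60) and 12 of 27 cases (median -0.82). Without the 5 cells with all 4 split genes, 4 of which lacked EYFP, these were 2 lower and 3 higher of 14 (median -0.34) and 2 of 27 (median -0.20). Cnp was at a log2 ratio of -1.60 (-1.75 to -1.46) with those cells and at -0.55 (-0.77 to -0.33) without them, and Cldn11 at -3.29 with and 1.07 (-1.09 to 4.28) without. The myelin difference by EYFP thus rested mainly on 5 cells.

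The comparison between ages used the 81 P2 and 30 E18 Pdgfra-positive cells, at median depths of 20904 and 7070 UMIs. Of 9799 features, 21.5% were at least 2-fold higher at P2 and 8.04% lower, around a median of 0.22. The G2 and M phase genes were higher in 20 of 20 cases (median 2.69), with Top2a, the topoisomerase of dividing cells, at 396 against 63.4 CPM. With 6 or more rule genes 5 of 13 were higher (median 0.95), and Ube2c, a ubiquitin enzyme of mitosis, went from 3.07 to 0.95. S phase genes were higher in 6 and lower in 1 of 20 cases (median 0.66), and with 6 or more rule genes 1 was higher and 4 lower of 18 (median -0.06). The higher G2 and M level at P2 therefore shrank with the number of rule genes.

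Subpallial and inhibitory neuron genes were higher at P2. The P2 dissection held the lateral wall too, but age, dissection, mouse line and library cannot be told apart. Of 9 inhibitory neuron markers 7 were higher and 0 lower (median 2.88). Of the 81 P2 cells 32 held 4 or more markers of that list, against 0 of the 30 E18 cells. Of 11 subpallial genes 8 were higher and 1 lower (median 1.19, and 5 and 1 of 10 with a median of 1.35 with 6 or more rule genes). Dlx1 had 500 UMIs in 49 of 81 P2 cells and 1 UMI in the 30 E18 cells (log2 ratio 5.72, 3.24 to 11.03). Dlx2 was at 189 against 24.4 CPM (2.95), and the E18 level rested on 2 cells. With 6 or more rule genes the 18 E18 cells had 0 Dlx2 UMIs, so its ratio of 1.94 is a lower bound against the floor of 3 UMIs. Gsx1 was the reverse, at 44.9 against 127 CPM (interval of the log2 ratio -2.15 to -0.81). Egfr was higher at P2 at 129 against 29.3 CPM (2.15, and 0.98 with 6 or more rule genes). Of 19 dissociation stress genes 12 were higher at P2 and 0 lower (median 1.17, and 1.87 with 6 or more rule genes), with Fos at 382 against 107 CPM and Junb at 176 against 24.4 CPM. Their part in the other age differences was not tested.

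Single genes lower at P2 came from several lists. Hes5, a Notch target counted among the transcription factors, was at 61.4 against 307 CPM (log2 ratio -2.32, -2.78 to -1.86, and -2.04 with 6 or more rule genes). Glo1, which detoxifies methylglyoxal, was at 108 against 512 CPM (-2.24, and -2.43 with 6 or more). Cdo1, a cysteine dioxygenase, and Scrg1 were at -2.03 and -1.99, and at -1.28 and -1.29 with 6 or more rule genes. Eno1, a glycolytic enzyme, was at 375 against 1136 CPM (-1.60, and -1.49 with 6 or more), and Ldha at 349 against 834 CPM. Of 15 glycolysis genes 3 were lower and 1 higher (median -0.55), and 6 and 2 (median -0.57) with 6 or more rule genes. Pnlip had 12 UMIs in 4 of the 30 E18 cells and 2 UMIs in 1 of the 81 P2 cells. Of 22 surface and matrix genes 7 were lower and 1 higher (median -0.63), which became 4 and 4 (median 0.13) with 6 or more rule genes.

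**Figure D5:**
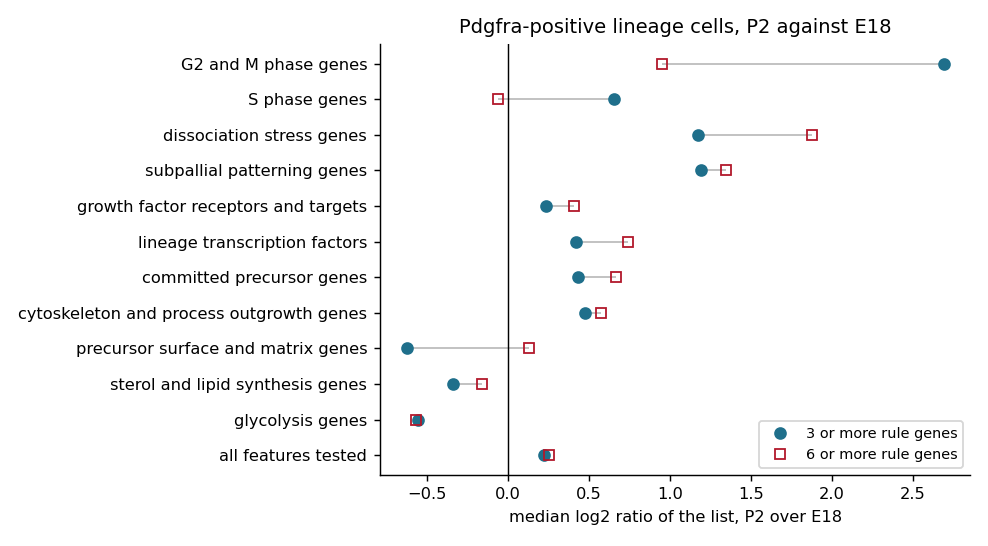
Median log2 ratio of P2 over E18 Pdgfra-positive cells for each gene list, with 3 or more rule genes (filled circles) and with 6 or more (open squares). The list of G2 and M phase genes falls from 2.69 to 0.95 and that of surface and matrix genes changes sign, while the stress list is higher with 6 or more.

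The E18 committed group was small. Its 6 cells all had Pdgfra, at 515 CPM. Of the split genes that chose them, all 6 had Bcas1 and 4 had Gpr17, at 569 CPM (352 to 869) against 82.9 CPM in the 30 Pdgfra-positive E18 cells. Mbp had 2 UMIs in them, and Myrf, Neu4 and Bmp4 had 1, 1 and 2. No E18 cell had 3 or more of the 4 genes, at a median depth of 7002 UMIs in E18 lineage cells against 21009 at P2.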

How the data were processed

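Gene expression was measured in single cells by sequencing polyadenylated RNA. The deposited values are raw counts of UMIs per gene and cell barcode, not normalised: the authors made them with Cell Ranger 4.0.0 per the file headers, and with version 4 against mm10 per the submitters' processing notes. The deposited gene and barcode lists hold names only, of a type recorded as other.

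The cell filter removed 291 E18 and 336 P2 barcodes. Scrublet (scanpy 1.11.5, doublet rate 0.05) marked 7 E18 and 4 P2 cells by its automatic threshold, too few to serve, so all cells stayed in and the highest 5% of scores were left out as an alternative. A group's counts were added up and divided by all UMIs of the group to give CPM (numpy 2.4.6, scipy 1.17.1). The log2 ratio of 2 groups has an exact conditional 95% interval. On simulated Poisson counts, the model the interval assumes, it held the true ratio in 96.3% of cases. The simulation had no variation between cells, so that share does not cover such variation. For a group at 0 UMIs a level of 3 UMIs was used as a bound, also in list medians. Features with 10 or more UMIs over both groups were called at a log2 ratio of 1 or -1 and beyond. Each age has 1 library, so there is no test, and intervals cover counting error only. Gene positions are those of GENCODE M21 on GRCm38.

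Named genes were the 12 highest and 12 lowest per comparison by the interval bound nearest 0, with 50 or more CPM in 1 group and detection in 10% or more and at least 3 of its cells. Mitochondrial, ribosomal, haemoglobin, sex-linked and predicted genes, EYFP and the rule's own genes were left out, and within the lineage so were genes under 25% of their level in other cells. Some named genes are not reported here, and not all others are described. List genes may also be named and serve as examples and were picked after their values were seen. The members, lists and comparisons were chosen with earlier results of these data known. Alternatives changed the number of rule or split genes, depth, doublet scores, mitochondrial limit, scaling and UMI filter. Another left out cells with 5 or more cycle genes in unthinned counts. The alternatives with 6 or more rule genes and without the 5 cells with all 4 split genes were chosen after seeing the data.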

Additional observations from a re-analysis of the deposited data

Results flagged for a closer look

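Of the listed and named genes outside the rule, 3 lay on opposite sides of the other cells at the 2 ages, each past the 2-fold limit with an interval apart from 0. The difference between the ages was not tested, since each has 1 library. At E18 the lineage levels rested on few UMIs and the intervals were wide. They were -3.61 to -0.374 for Neurog2, -5.35 to -0.445 for Nlgn1 and 0.256 to 5.56 for Six3. Neurog2, a dorsal proneural factor, had a log2 ratio of lineage over other cells of -1.74 at E18 (15.8 against 52.6 CPM) and 1.55 at P2 (10.2 against 3.50 CPM). Nlgn1, a synaptic adhesion gene, had -2.30 at E18 and 1.74 at P2. For both genes the level in other cells was higher at E18 than at P2. Nlgn1 was at 7.90 CPM in E18 lineage cells and 43.8 CPM in P2 lineage cells. Six3 had 3.44 at E18 (7.90 against 0.729 CPM) and -1.34 at P2 (34.9 against 88.8 CPM).

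Outside the cell filter, 14 P2 barcodes had 3 or more rule genes, 12 of them over the mitochondrial limit and 2 under 500 genes. Among them 6 had 6 or more rule genes and 5 had 2 or more split genes. At E18 there was 1 such barcode.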

How the results depend on the processing

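No paired analysis was possible because each age has 1 library. The share of lineage cells was 2.17% at E18 with 2 or more rule genes and 0.874% with 6 or more. At P2 it was 5.04%, 5.81% and 6.61% after thinning to 2000, 3000 and 5000 UMIs, 14.3% with 2 or more rule genes, 6.96% with 4 or more, 5.81% with 6 or more, 7.62% without the highest doublet scores and 7.55% with a mitochondrial limit of 5%. The cycling share was 11.8% at E18 with 8 or more cycle genes required. At P2 it was 40.4% at 5000 UMIs, 45.3% with 3 or more and 24.8% with 8 or more cycle genes, 41.6% with 2 or more, 22.9% with 4 or more and 19.0% with 6 or more rule genes, and 43.5% with the 5% mitochondrial limit. The EYFP share was 42.5% and 50.5% at 2000 and 3000 UMIs.

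The number of features past the fold at P2 was 2703 for lineage against other cells and 1753 with 50 or more UMIs. For committed cells it was 1315, against 2019 with no filter, 479 with 50 or more UMIs and 2074 with 3 or more split genes. For age it was 2897, against 1717 with 50 or more UMIs. It was 1321 without cells with 5 or more cycle genes in unthinned counts (11 P2 and 20 E18 cells left). That cut follows depth and differs from the cycling call above, which used thinned counts. For EYFP it was 1034, against 2000 with no filter and 260 with 50 or more UMIs.

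Some log2 ratios changed sign. For P2 lineage cells the ependymal median was 0.46 with 2 or more rule genes. For committed cells, with 6 or more rule genes Esco2 was 0.54, Efhd2 0.11, Tyms 0.31 and Gfod2 0.52. Without cycling cells S100b -1.12 and Gfod2 0.47, and with the split on thinned cells Tyms was 0.026. For age under the same cut on cycle genes Ube2c was -0.34. For EYFP under that cut Pax6 was -0.49, Fam210b -1.39, Igfbpl1 -3.82, S100b 0.25, Dusp15 1.35 and Arpc1b 0.77. The excitatory neuron median, there over 1 measured marker, was -2.08. The cause was not tested.

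Among the main results, 28 values moved and 85 stayed within their interval or within 1.5 times. Among named genes 352 moved, 14 changed sign and 1115 stayed. Scaling by TMM shifted all log2 ratios of a comparison by -0.09 to 0.05.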
